A study of Mus musculus with 12 samples.

Results

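The 29 genes described here mark astrocytes, the star-shaped glia of the central nervous system, and were measured in cells sorted for another lineage. They were taken as a list of gene symbols. All 29 matched a gene among the 35675 with a transcript in the files, and 28 were among the 13456 genes tested. The libraries were poly(A) RNA-seq of tdTomato-positive spinal cord cells with large forward scatter, sorted at postnatal day 10, with 4 mice per genotype and 1 library per mouse. Every mouse carried CnpCre and the reporter Rosa26-StopFlox-TdTomato. RalAB cKO mice had RalAflox/flox and RalBflox/flox in addition, RalA cKO mice had RalAflox/flox, and control mice had no floxed Ral allele. Cnp is a gene of the oligodendrocyte lineage, and the sort enriched for oligodendrocytes and did not select astrocytes. In such a bulk sample, fewer cells of a type and less RNA per cell cannot be told apart.

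Astrocytes take up glutamate, GABA and glycine around synapses, turn glutamate into glutamine, and move water and ions at the processes that wrap blood vessels. Their genes are commonly used to gauge astrocyte RNA in a tissue or sort, but several are not exclusive: glutamine synthetase (Glul), for example, is also made by oligodendrocytes of the spinal cord. RalA and RalB are small GTPases that act through the exocyst complex in the delivery of vesicles to the plasma membrane.

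The promoters of 3 members are shown as sequence because they hold the letters TTCNNNGAA, the palindrome to which STAT proteins bind, and STAT3 is a known activator of Gfap. Each runs from 250 bases before to 50 bases after the RefSeq start on GRCm38.p6, 5′ to 3′ on the gene's strand, with the match in capitals. The first, Gfap, lies at chr11:102897151-102897450 (minus strand, match beginning at -2), Agt at chr8:124569657-124569956 (minus strand, match at -172) and Slc1a3 at chr15:8710758-8711057 (minus strand, match at -96), positions being counted from the annotated start. The motif reads the same on both strands, and no other motif was searched. The matches are of letters alone, and whether a STAT protein binds at any of them was not tested.
Gfap: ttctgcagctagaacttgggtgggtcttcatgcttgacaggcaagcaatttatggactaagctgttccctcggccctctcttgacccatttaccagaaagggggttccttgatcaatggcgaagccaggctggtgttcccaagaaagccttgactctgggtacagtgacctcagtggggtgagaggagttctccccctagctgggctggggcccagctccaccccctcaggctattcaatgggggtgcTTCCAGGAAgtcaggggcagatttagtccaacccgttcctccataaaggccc
Agt: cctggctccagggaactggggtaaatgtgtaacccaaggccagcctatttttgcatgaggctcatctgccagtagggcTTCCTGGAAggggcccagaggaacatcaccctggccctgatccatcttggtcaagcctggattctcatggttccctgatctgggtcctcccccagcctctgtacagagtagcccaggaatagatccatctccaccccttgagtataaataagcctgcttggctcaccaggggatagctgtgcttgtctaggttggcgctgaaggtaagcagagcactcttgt
Slc1a3: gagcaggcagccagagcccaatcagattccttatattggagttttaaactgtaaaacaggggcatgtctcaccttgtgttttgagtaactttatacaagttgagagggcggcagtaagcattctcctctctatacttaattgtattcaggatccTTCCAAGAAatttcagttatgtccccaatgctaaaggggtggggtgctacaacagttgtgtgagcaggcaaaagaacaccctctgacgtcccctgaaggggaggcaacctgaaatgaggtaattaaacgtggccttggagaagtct
A match was found in 4 of the 25 members with a promoter in the table, the other being Ntsr2, and in 9.55% of the 27025 genes with a promoter of that length there. Aqp4, Clu, Atp1b2 and Sox9 had no entry. Below, Agt and Slc1a3 were lower in RalAB cKO cells, while Gfap and Ntsr2 did not pass the test.

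Each library held 10928206 to 15440437 estimated counts. On the log2 scale of CPM (counts scaled to library size, the same for every gene), oligodendrocyte markers averaged 11.16 to 11.86 in the 12 libraries, whereas the 28 tested astrocyte genes averaged 4.47 to 5.85. All 29 astrocyte genes together held 0.224% to 0.349% of a library's counts. The targeted genes separated the groups poorly. Rala was 32.2 to 42.9 CPM in RalAB cKO cells, 33.1 to 42.7 CPM in RalA cKO cells and 35.5 to 59.3 CPM in control cells. Ralb had up to 17.2, 17.5 and 23.3 CPM in the same order, and at least 13.4 CPM in every library. Against control, Rala differed by -0.39 ± 0.15 log2 units in RalAB cKO (edgeR adjusted p = 0.0832) and by -0.31 ± 0.15 in RalA cKO (adjusted p = 0.236), and Ralb by -0.28 ± 0.15 in RalAB cKO (adjusted p = 0.216). These are sums over whole transcripts, and the sources used here do not say which exons the floxed alleles lose. The genotypes therefore rest on the labels. Control mouse 3 and RalA cKO mouse 1 stood apart from the rest of their groups in the astrocyte genes, as set out below. Labels give no sequencing batch.

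Most astrocyte genes had less RNA in RalAB cKO cells than in control cells. Of the 28 tested members, 17 fell and 1, Glul, rose (edgeR quasi-likelihood test, Benjamini-Hochberg adjusted p under 0.05 over all tested genes), where over all tested genes 9.02% fell and 9.39% rose. Members that fell include the transporters of glutamate, GABA and glycine, whereas Gfap, the intermediate filament protein most used to stain astrocytes, did not pass. The fewest members passed without 1 of 3 libraries. Without RalAB cKO mouse 3, 8 fell and 1 rose (5.72% and 6.57% of all tested genes). Without RalAB cKO mouse 4, 9 fell and 1 rose (5.61% and 6.14%), and likewise 9 and 1 without control mouse 3, whose values are given further on. Without any other single library, 15 to 18 members passed in either direction. The median log2 fold change was -0.739 over the 28 members and -0.00902 over all tested genes, and 24 of 28 members were below 0. In 15 members every RalAB cKO library was under every control library, as it was in 9.34% of all tested genes, and in Glul every RalAB cKO library was above (9.88% of all tested genes).

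Against RalA cKO cells, RalAB cKO cells were also low in astrocyte genes. Of the 28 members 10 fell and 0 rose, where 4.5% of all tested genes fell and 7.03% rose, with a median log2 fold change of -0.628 for the members and -0.0262 for all genes. Without RalAB cKO mouse 3 there were 6 that fell (3.28% of all tested genes), and without RalAB cKO mouse 4 there were 3 (2.85%). In sign alone, 26 of 28 were below 0, and in 15 members every RalAB cKO library was under every RalA cKO library (7.63% of all tested genes). RalA cKO cells against control cells gave a different count: 2 members rose, Glul and Hepacam, and 0 fell, where 1.71% of all tested genes rose and 1.07% fell, with a median of -0.113 for the members and -0.0218 for all genes. The 3 comparisons share libraries, so their values are set side by side and are not independent of each other.

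**Figure D1:**
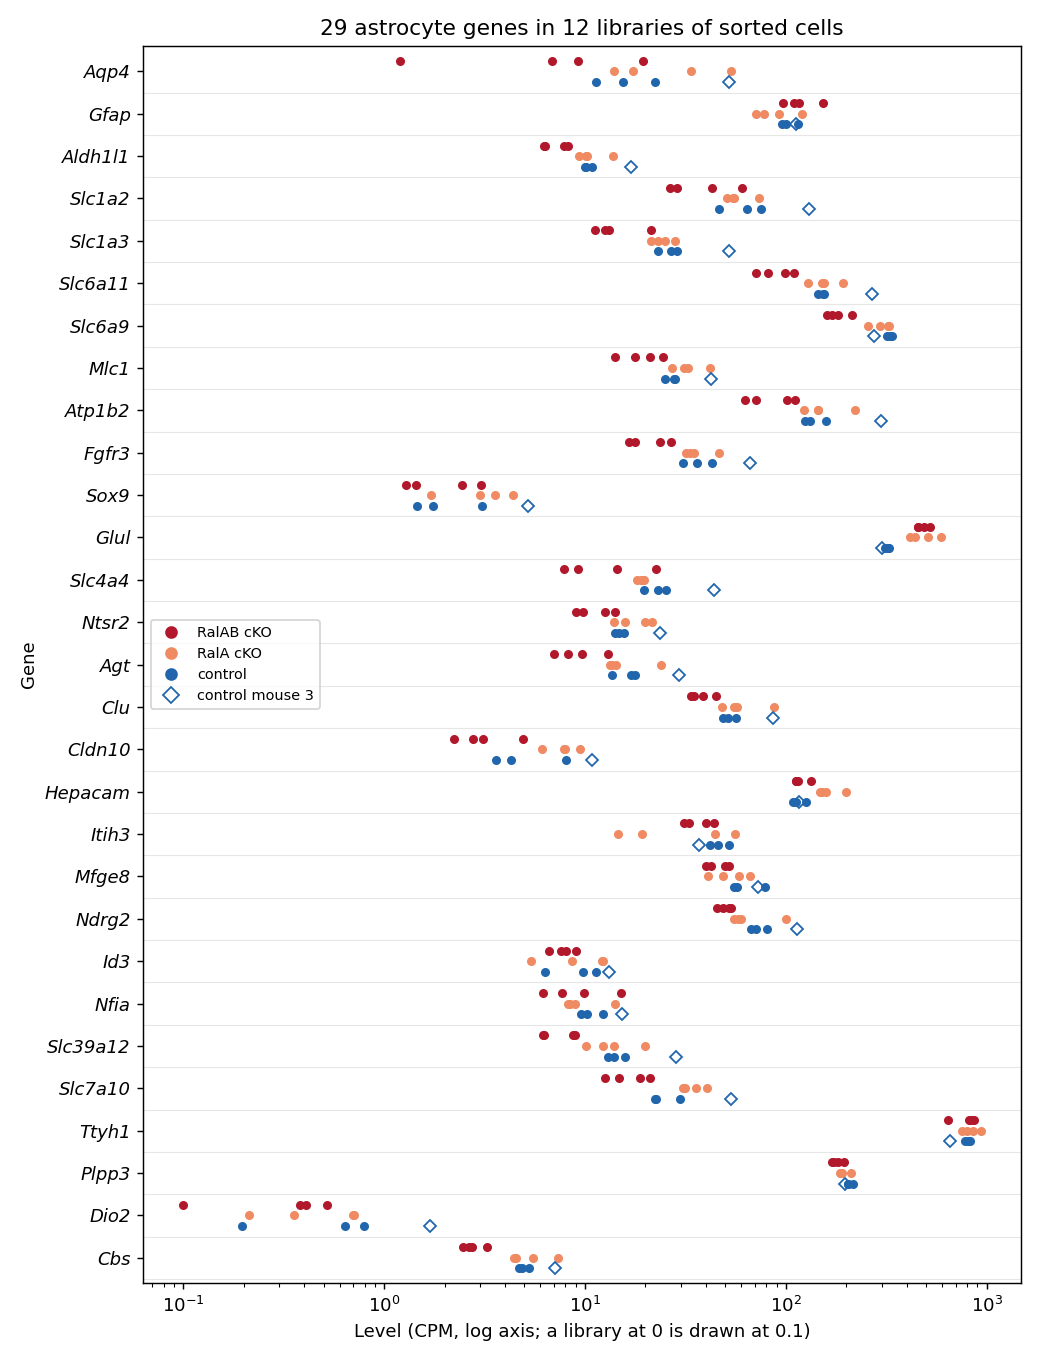
Level of each of the 29 astrocyte genes in each of the 12 libraries, in CPM on a log axis, with RalAB cKO libraries in dark red, RalA cKO libraries in orange and control libraries in blue, control mouse 3 as an open diamond. In Slc6a9 the RalAB cKO libraries lie at 160.3 to 213 CPM, under all others, while in most genes the open diamond is the right-most blue mark.

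Among genes of neurotransmitter uptake and recycling, 4 of 5 fell and 1 rose in RalAB cKO against control. Slc6a9 encodes the glycine transporter GlyT1. It had 171, 213, 160.3 and 182 CPM in RalAB cKO cells, 324, 294, 257 and 325 CPM in RalA cKO cells and 338, 317, 274 and 329.6 CPM in control cells. The RalAB cKO libraries were all below the other 8, and control mouse 3 was the lowest control. Its log2 fold change was -0.79 ± 0.11 (adjusted p = 0.000243) against control and -0.72 ± 0.11 (adjusted p = 0.000416) against RalA cKO by edgeR, and -0.07 ± 0.11 (adjusted p = 0.746) in RalA cKO against control. Slc6a9 overlaps B4galt2 on the opposite strand, which had 393 to 943 counts per library where Slc6a9 had 2006 to 5167. Whether the counting used strand is not stated in those sources, so reads of the pair might not be told apart. Slc6a11 encodes the GABA transporter GAT-3. Its libraries held 109.5, 99.1, 71.1 and 81.5 CPM in RalAB cKO cells, 193, 129, 152 and 154 CPM in RalA cKO cells and 155, 145, 269 and 154 CPM in control cells. Again no RalAB cKO library reached another group, but here control mouse 3 was far above the other controls. The log2 fold change of Slc6a11 was -1.001 ± 0.20 (adjusted p = 0.00305) against control and -0.80 ± 0.20 (adjusted p = 0.0149) against RalA cKO.

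The glutamate transporters were lower too. Slc1a3, which encodes GLAST, had 21.2, 13.2, 11.2 and 12.6 CPM in RalAB cKO cells, 28.0, 21.3, 25.1 and 23.1 CPM in RalA cKO cells and 23.0, 28.8, 51.9 and 26.7 CPM in control cells. Its log2 fold change was -1.16 ± 0.25 (adjusted p = 0.00451) in RalAB cKO against control and -0.74 ± 0.25 (adjusted p = 0.069) against RalA cKO (edgeR). The highest RalAB cKO library lay just under the lowest library of both other groups, and control mouse 3 held well above the level of any other control. Slc1a2, which encodes GLT-1, had 60.2, 42.8, 26.4 and 28.6 CPM in RalAB cKO cells, 73.6, 54.4, 55.2 and 50.9 CPM in RalA cKO cells and 46.4, 64.0, 131 and 75.2 CPM in control cells. In Slc1a2 the groups overlapped, since the first RalAB cKO library was above the first control. Its log2 fold change against control was -1.004 ± 0.32 (adjusted p = 0.0489), the call nearest the threshold. Against RalA cKO it was -0.57 ± 0.32 (adjusted p = 0.338). The Slc1a2 call against control held in only 8 of 21 other settings of processing or left-out library. Glul, which makes glutamine from glutamate, went the other way. It had 456, 520.4, 488 and 454 CPM in RalAB cKO cells, 417, 442, 510.4 and 589.9 CPM in RalA cKO cells and 312, 325, 303 and 323 CPM in control cells. Both mutants were above all controls in every library, and control mouse 3 was the lowest control. Glul rose by 0.60 ± 0.11 (adjusted p = 0.00142) log2 units in RalAB cKO and by 0.63 ± 0.11 (adjusted p = 0.00698) in RalA cKO against control, and differed between the mutants by -0.03 ± 0.11 (adjusted p = 0.916).

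Among genes of water and ion balance, 3 of 6 fell in RalAB cKO against control and 0 rose. Mlc1 encodes a membrane protein of the processes around vessels. It had 24.4, 21.1, 17.7 and 14.1 CPM in RalAB cKO cells, 42.0, 31.3, 27.1 and 32.7 CPM in RalA cKO cells and 27.9, 24.99, 42.5 and 27.9 CPM in control cells. Every RalAB cKO library was below every other library, with log2 fold changes of -0.68 ± 0.19 (adjusted p = 0.0239) against control and -0.78 ± 0.19 (adjusted p = 0.0135) against RalA cKO (edgeR). Hepacam encodes GlialCAM, the adhesion protein that partners MLC1. It had 112, 133, 113 and 115 CPM in RalAB cKO cells, 148, 152, 159 and 199 CPM in RalA cKO cells and 108, 113, 117 and 126 CPM in control cells. Here the RalA cKO libraries were the ones set apart, above both other groups. Hepacam rose by 0.51 ± 0.11 (adjusted p = 0.0228) in RalA cKO against control. It fell by 0.48 ± 0.11 on the log2 scale in RalAB cKO against RalA cKO (adjusted p = 0.00777). The difference was 0.03 ± 0.11 (adjusted p = 0.889) in RalAB cKO against control. The difference between the partner genes was not tested.

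Atp1b2, the beta-2 subunit of the sodium pump, was 62.6 to 111 CPM in RalAB cKO cells, 123 to 220.0 CPM in RalA cKO cells and 125 to 298 CPM in control cells. It had log2 fold changes of -1.04 ± 0.29 (adjusted p = 0.0279) against control and -0.86 ± 0.29 (adjusted p = 0.0837) against RalA cKO. Slc4a4, a sodium bicarbonate cotransporter, was 7.91 to 22.6 CPM in RalAB cKO cells, 18.2 to 19.8 CPM in RalA cKO cells and 19.8 to 44.1 CPM in control cells. Its log2 fold change against control was -1.05 ± 0.30 (adjusted p = 0.0271) although 1 RalAB cKO library lay among the controls. Aqp4 is the water channel of astrocyte endfeet. It had 19.5, 6.86, 1.20 and 9.20 CPM in RalAB cKO cells, 53.4, 13.97, 33.8 and 17.4 CPM in RalA cKO cells and 11.3, 15.5, 52.0 and 22.3 CPM in control cells. Its libraries spread more than those of any other tested member, so that a log2 fold change of -1.46 ± 0.75 (adjusted p = 0.215) against control and -1.68 ± 0.76 (adjusted p = 0.221) against RalA cKO did not pass. Ttyh1, a channel-like membrane protein, had the highest level of the list per transcript length. Its group means were 1001, 1013 and 1113 TPM (a share of the library's transcripts that allows for transcript length) in RalAB cKO, RalA cKO and control cells. In the count test it differed by 0.04 ± 0.12 (adjusted p = 0.859) in RalAB cKO against control.

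Of the structural genes, the junction gene Cldn10 fell and the filament gene Gfap did not pass the test in RalAB cKO against control. Gfap had 96.4, 116, 153 and 109 CPM in RalAB cKO cells, 121, 71.1, 78.2 and 92.6 CPM in RalA cKO cells and 115, 99.8, 112 and 95.3 CPM in control cells. The groups overlapped, and control mouse 3 lay within the controls. The log2 difference was 0.17 ± 0.16 (adjusted p = 0.519) in RalAB cKO and -0.22 ± 0.16 (adjusted p = 0.421) in RalA cKO against control, and 0.39 ± 0.16 (adjusted p = 0.152) between the mutants. Cldn10 encodes a claudin. It had 4.90, 2.78, 2.24 and 3.12 CPM in RalAB cKO cells, 9.47, 6.10, 7.86 and 7.97 CPM in RalA cKO cells and 3.60, 4.28, 10.8 and 8.09 CPM in control cells. Its controls spread widely, with 2 near the RalAB cKO libraries and 2 well above, and the log2 fold change was -1.04 ± 0.33 (adjusted p = 0.0406) against control and -1.26 ± 0.33 (adjusted p = 0.0197) against RalA cKO (edgeR). Of 21 other settings, the Cldn10 call held in 11 against control and in 16 against RalA cKO.

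Genes of metabolism and other transport fell in 5 of 6 tested members in RalAB cKO against control and rose in 0. Slc39a12 encodes the zinc transporter ZIP12. It had 8.69, 8.90, 6.23 and 6.16 CPM in RalAB cKO cells, 20.02, 10.2, 12.3 and 13.95 CPM in RalA cKO cells and 13.1, 15.9, 28.4 and 13.9 CPM in control cells. All RalAB cKO libraries were below the others and its log2 fold changes were -1.25 ± 0.26 (adjusted p = 0.00391) against control and -0.91 ± 0.26 (adjusted p = 0.0333) against RalA cKO. Slc7a10 encodes a transporter of small neutral amino acids. Its libraries held 18.7, 21.0, 12.6 and 14.8 CPM in RalAB cKO cells, 40.8, 30.6, 35.8 and 31.5 CPM in RalA cKO cells and 22.3, 22.7, 53.2 and 29.6 CPM in control cells. In Slc7a10 the RalA cKO libraries were above 3 of the 4 controls. It overlaps Lrp3 on the opposite strand, which had 391 to 818 counts per library where Slc7a10 had 157 to 851, so the limit given for Slc6a9 applies with a larger possible share. RalAB cKO differed from control by -0.93 ± 0.25 (adjusted p = 0.0199) and from RalA cKO by -1.05 ± 0.25 (adjusted p = 0.0135). Cbs, cystathionine beta-synthase, had 2.75, 3.27, 2.48 and 2.66 CPM in RalAB cKO cells, 7.33, 4.42, 5.50 and 4.55 CPM in RalA cKO cells and 4.72, 4.84, 7.13 and 5.27 CPM in control cells. Its RalAB cKO libraries were tightly grouped below all others, with -0.98 ± 0.23 (adjusted p = 0.00867) against control and -0.96 ± 0.24 (adjusted p = 0.0122) against RalA cKO on the log2 scale, from 31 to 114 counts per library. With transcript length offsets, Cbs no longer passed in either comparison (-0.376 against RalA cKO).

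Aldh1l1, the folate enzyme widely used to mark astrocytes, was 6.29 to 8.24 CPM in RalAB cKO cells, 9.37 to 13.9 CPM in RalA cKO cells and 9.99 to 17.0 CPM in control cells. Ndrg2, a hydrolase-like protein abundant in astrocytes, was 45.3 to 53.3 CPM in RalAB cKO cells, 55.4 to 100 CPM in RalA cKO cells and 67.5 to 113 CPM in control cells. In both, every RalAB cKO library was below every other library, and the log2 fold changes against control were -0.74 ± 0.20 (adjusted p = 0.0185) for Aldh1l1 and -0.74 ± 0.19 (adjusted p = 0.015) for Ndrg2. Against RalA cKO neither passed, at -0.60 ± 0.20 (adjusted p = 0.0715) and -0.45 ± 0.19 (adjusted p = 0.17). Plpp3, a lipid phosphatase, averaged 180.3 ± 11.2 CPM in RalAB cKO cells, 194 ± 11.5 CPM in RalA cKO cells and 206 ± 8.39 CPM in control cells (SD, n = 4 each). The difference of -0.19 ± 0.09 (adjusted p = 0.144) from control did not pass. Dio2, which activates thyroid hormone, had at most 27 counts in a library, was at 0 in RalAB cKO mouse 3 and was not tested.

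Of 4 secreted proteins 3 fell in RalAB cKO against control. Agt, whose promoter is printed above, encodes angiotensinogen. It had 9.65, 13.1, 7.03 and 8.21 CPM in RalAB cKO cells, 24.0, 13.3, 13.6 and 14.2 CPM in RalA cKO cells and 17.0, 13.6, 29.4 and 17.8 CPM in control cells. The RalAB cKO libraries were all lower than the rest, and 1 library stood high in each of the other groups. Its log2 fold change was -1.04 ± 0.26 (adjusted p = 0.012) against control and -0.78 ± 0.26 (adjusted p = 0.0728) against RalA cKO. Clu, the chaperone clusterin, was 33.8 to 45.0 CPM in RalAB cKO cells, 47.9 to 86.9 CPM in RalA cKO cells and 48.9 to 86.2 CPM in control cells. It differed by -0.68 ± 0.20 (adjusted p = 0.0279) against control and -0.70 ± 0.20 (adjusted p = 0.0328) against RalA cKO. Mfge8, a bridging protein of phagocytosis, was 40.2 to 52.0 CPM in RalAB cKO cells, 40.9 to 66.2 CPM in RalA cKO cells and 55.0 to 78.5 CPM in control cells. It differed by -0.51 ± 0.15 (adjusted p = 0.0298) against control. Itih3, a hyaluronan-binding serum protein chain, did not pass (-0.25 ± 0.34 (edgeR adjusted p = 0.672)).

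Fgfr3 encodes a fibroblast growth factor receptor. It had 23.5, 26.8, 17.7 and 16.7 CPM in RalAB cKO cells, 46.7, 31.9, 34.9 and 33.4 CPM in RalA cKO cells and 42.8, 30.6, 66.5 and 36.2 CPM in control cells. No RalAB cKO library reached a library of another group, and its log2 fold change was -1.06 ± 0.22 (adjusted p = 0.00461) against control and -0.79 ± 0.23 (adjusted p = 0.032) against RalA cKO. Ntsr2, a neurotensin receptor, was 9.03 to 14.1 CPM in RalAB cKO cells, 13.9 to 21.5 CPM in RalA cKO cells and 14.1 to 23.6 CPM in control cells. It missed the threshold against control and against RalA cKO, at -0.58 ± 0.20 (adjusted p = 0.0557) and -0.64 ± 0.20 (adjusted p = 0.0513). The 3 transcription factors did not pass in any comparison. Sox9, which specifies glia, was 1.28 to 3.04 CPM in RalAB cKO cells, 1.71 to 4.38 CPM in RalA cKO cells and 1.46 to 5.19 CPM in control cells, from 16 to 83 counts per library. In RalAB cKO against control the log2 differences were -0.50 ± 0.42 (adjusted p = 0.455) for Sox9, -0.38 ± 0.26 (adjusted p = 0.333) for Id3, an inhibitor of helix-loop-helix factors, and -0.29 ± 0.26 (adjusted p = 0.48) for Nfia, a driver of gliogenesis.

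Control mouse 3 was high in most astrocyte genes. It was the highest control in 20 of the 28 tested members (71.4%, against 29.6% of all tested genes) and the highest of all 12 libraries in 17. Its level was a median of 1.62 times the mean of the other 3 controls over the members, with a range of 0.794 in Itih3 to 3.18 in Aqp4, where the median over all tested genes was 1.01. At least 1.5 times was reached by 17 of 28 members (60.7%) and by 13.4% of all tested genes. The exceptions at or below the other controls were Slc6a9 (0.833), Ttyh1 (0.814), Glul (0.946), Plpp3 (0.943) and Itih3. The median ratio of the oligodendrocyte genes was 0.811. Slc6a9, Ttyh1, Glul and Plpp3 averaged 314.8, 767.5, 315.6 and 205.8 CPM in control, where the whole list summed to a mean of 2814 CPM. In these genes and Hepacam (ratio 1.01), RalA cKO mouse 1 was not the highest of its group either. Which cells their RNA came from was not tested.

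Without control mouse 3, 9 of the 28 members fell in RalAB cKO against control and Glul still rose, where 6.72% of all tested genes fell and 7.67% rose, and the members' median was -0.55 against -0.0193 for all tested genes. The 9 were Slc6a9 (-0.87, adjusted p = 0.00018), Slc6a11 (-0.76, adjusted p = 0.00402), Slc1a3 (-0.86, adjusted p = 0.00818), Fgfr3 (-0.80, adjusted p = 0.00968), Slc39a12 (-0.94, adjusted p = 0.0109), Cbs (-0.84, adjusted p = 0.0312), Agt (-0.78, adjusted p = 0.0433), Slc7a10 (-0.58, adjusted p = 0.0453) and Ndrg2 (-0.56, adjusted p = 0.0474). The other 8 that had fallen no longer passed: Aldh1l1 (-0.54, adjusted p = 0.0708), Mlc1 (-0.49, adjusted p = 0.0887), Slc4a4 (-0.76, adjusted p = 0.0842), Atp1b2 (-0.69, adjusted p = 0.0585), Clu (-0.47, adjusted p = 0.0886), Mfge8 (-0.48, adjusted p = 0.0744), Cldn10 (-0.71, adjusted p = 0.159) and Slc1a2 (-0.66, adjusted p = 0.128). Of the 17 log2 fold changes, 16 moved nearer to 0 and 1, that of Slc6a9, moved away. All 17 stayed negative. In 15 members every RalAB cKO library was below each of control mice 1, 2 and 4 (11.2% of all tested genes).

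**Figure D2:**
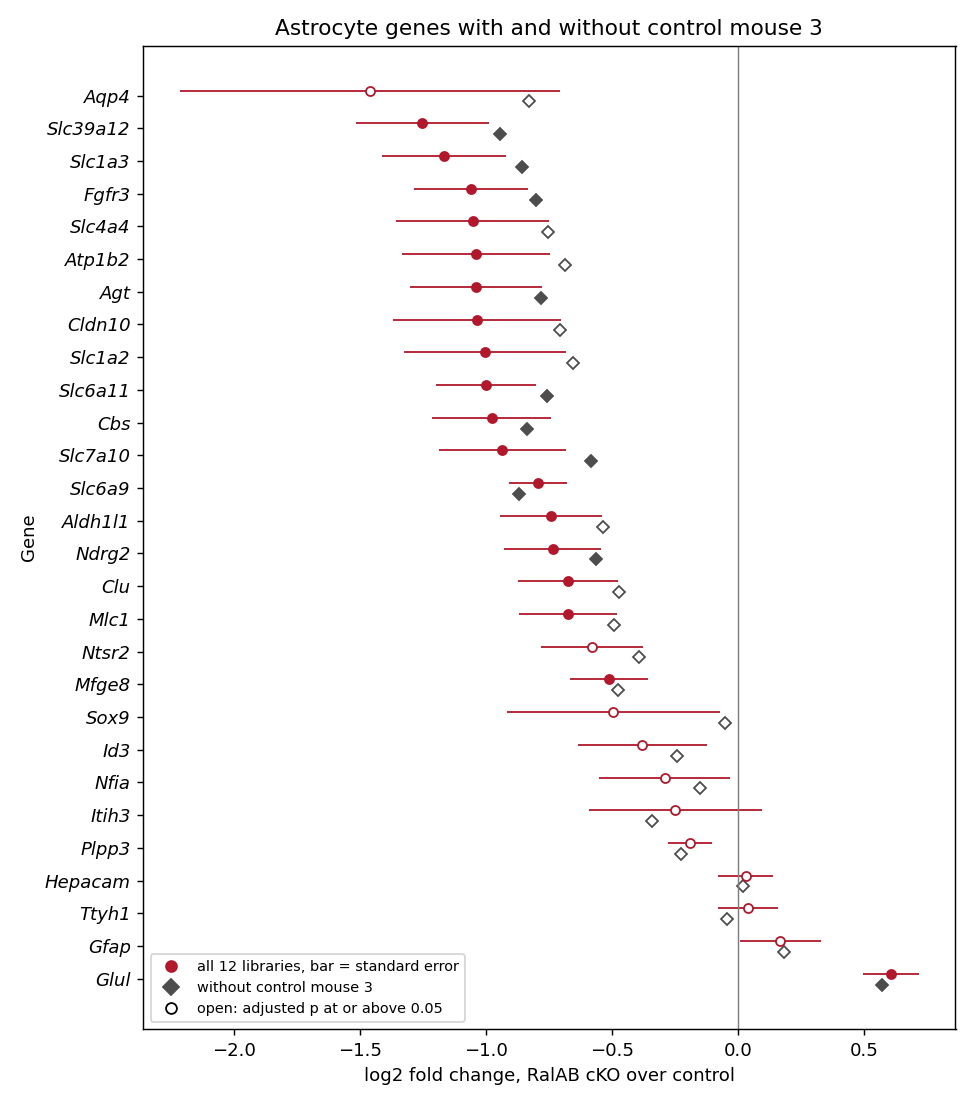
log2 fold change of RalAB cKO over control for the 28 tested astrocyte genes, with all 12 libraries (red circles, bars showing the standard error) and without control mouse 3 (grey diamonds), filled where the edgeR adjusted p is under 0.05. Of the 17 genes called lower, 9 keep a filled diamond, and all diamonds but that of Slc6a9 sit nearer to 0 among them.

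In RalA cKO against control without control mouse 3, Glul rose (0.60, adjusted p = 0.0247) and Hepacam no longer passed (0.50, adjusted p = 0.0591), where 0.654% of all tested genes rose and 0.478% fell. The members' median turned to 0.0424 there, with 13 of 28 below 0, against -0.113 and 18 of 28 with all libraries. The comparison of the mutants uses no control library in its fold changes. Without control mouse 3, 15 of 28 members fell in RalAB cKO against RalA cKO and 0 rose, where 4.73% of all tested genes fell and 7.27% rose, with a median of -0.632. The high library of the RalA cKO group was RalA cKO mouse 1, the highest of its group in 21 of 28 members (75%, against 25.5% of all tested genes). That library was also the highest of its group in 11 of 16 neuron, 7 of 10 endothelial, 6 of 8 pericyte and fibroblast and 6 of 12 oligodendrocyte precursor genes, and in 3 of 15 microglia and 0 of 12 oligodendrocyte genes. Without RalA cKO mouse 1, 5 members fell (Slc6a11, Slc6a9, Mlc1, Hepacam and Slc7a10) and Gfap rose (0.55), where 3.67% of all tested genes fell and 5.95% rose, with a median of -0.507. Without both libraries, a setting chosen after seeing the data, 12 members fell and 1 rose (3.89% and 6.45% of all tested genes), with a median of -0.502. Against control 11 then fell and 1 rose (6.93% and 7.71% of all tested genes), with a median of -0.55.

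The members that stood high in control mouse 3 were also those with the lower values in RalAB cKO against RalA cKO. The pair of measures shares no library, but that fold change includes RalA cKO mouse 1, the highest of its group in 21 of 28 members. The relation was not computed without RalA cKO mouse 1, so the part of that library in it was not tested. Over the 28 members the ratio of control mouse 3 to the other controls and that fold change had a Spearman rho of -0.715 and a Pearson r of -0.744, given as a description across genes that are not independent of one another, and over all 13407 genes with a finite ratio above 0 the values were 0.113 and 0.199. The 17 members at or above a ratio of 1.5 had a median log2 fold change of -0.776 between the mutants and the 11 members below it had -0.105. Slc6a9, Hepacam and Cbs were the 3 of those 11 that fell.

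**Figure D3:**
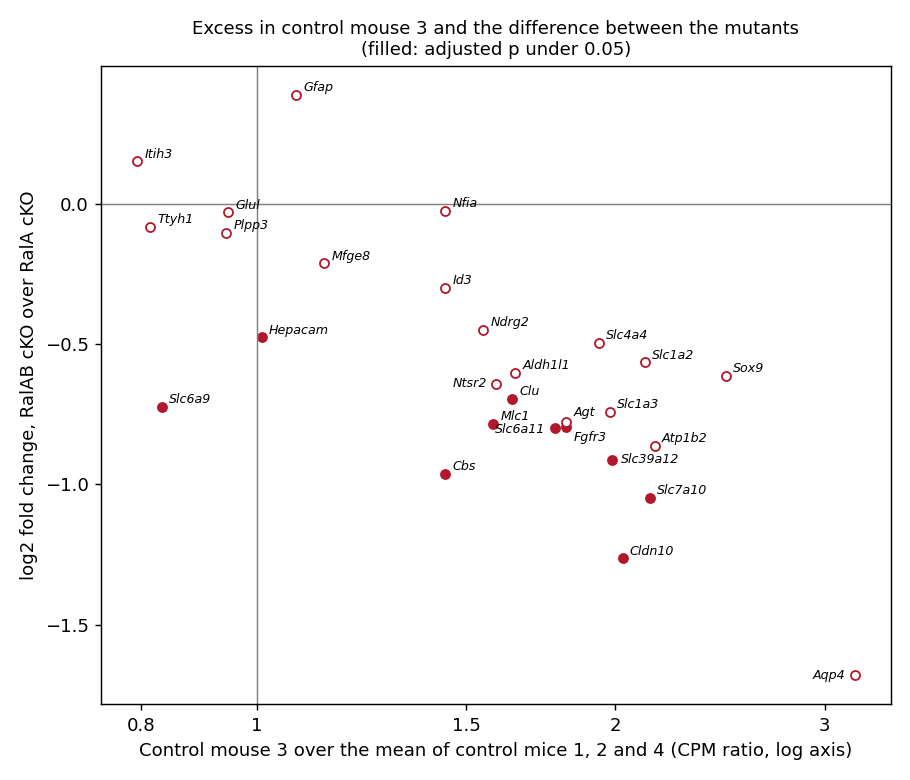
Ratio of control mouse 3 to the mean of the other controls (CPM ratio, log axis) against the log2 fold change of RalAB cKO over RalA cKO for the 28 tested astrocyte genes, filled where the edgeR adjusted p is under 0.05. Points run downward to the right (Spearman rho -0.715), with Slc6a9 low at a ratio under 1 and Gfap high near 1.

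A further list of 39 genes of astrocytes, 38 of them tested, held both directions. In RalAB cKO against control 13 fell and 5 rose (9.02% and 9.39% of all tested genes), with a median of -0.634 and 31 of 38 below 0. Without control mouse 3, 9 fell and 5 rose (6.72% and 7.67% of all tested genes), with a median of -0.443. With all libraries, the 4 with the smallest p included the metallothioneins Mt1 (2.29 ± 0.23, edgeR adjusted p = 2.31e-05) and Mt2 (2.40 ± 0.26, adjusted p = 6.2e-05). The others were the glypican Gpc5 (-1.61 ± 0.26, adjusted p = 0.000502) and the receptor tyrosine kinase Axl (1.44 ± 0.24, adjusted p = 0.000785). Mt1 had 240.2, 329, 435 and 489 CPM in RalAB cKO cells, 95.1, 96.5, 122 and 151 CPM in RalA cKO cells and 77.4, 96.9, 58.8 and 71.7 CPM in control cells. Against RalA cKO, 9 fell and 4 rose (4.5% and 7.03% of all tested genes), with a median of -0.549 and 31 of 38 below 0. The 4 that rose, against the direction of most of the list, were Mt2 (2.23), Mt1 (1.68), Axl (1.70) and Apoe (1.32). Axl and Apoe are also made by microglia, and the source of their RNA was not tested. In RalA cKO against control 1 of 38 rose, Paqr6 (1.10 ± 0.22, adjusted p = 0.0158), where 1.71% of all tested genes rose.

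Of 20 genes of reactive astrocytes, 11 were tested. In RalAB cKO against control 3 rose and 1 fell, where 9.39% of all tested genes rose and 9.02% fell. These were Cd44 (2.79, edgeR adjusted p = 6.61e-05), Srgn (2.21, adjusted p = 0.0126), Vim (0.69, adjusted p = 0.0492) and Emp1 (-1.37, adjusted p = 0.0492). In RalA cKO against control Cd44 rose (2.07, adjusted p = 0.0056) and Nes fell (-1.12, adjusted p = 0.00843), where 1.71% of all tested genes rose and 1.07% fell. Against RalA cKO 4 rose in RalAB cKO and 0 fell (7.03% and 4.5% of all tested genes), with a median of 0.882 and 3 of 11 below 0. Steap4 was at 0 in 11 of the 12 libraries and Lcn2 in 9, while 2 to 5 of the 20 genes were at 0 in any given library. Cd44, Srgn and Vim are also made by microglia and other immune cells, and the source of their RNA was not tested.

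Markers of several other cell types also differed, not all in the direction of the astrocyte genes, and their part in the result was not tested. In control mouse 3 the median ratio to the other controls was 3.15 for 16 neuron genes, 2.06 for 10 endothelial genes, 1.91 for 8 pericyte and fibroblast genes, 1.60 for 15 microglia genes, 1.59 for 12 oligodendrocyte precursor genes, 1.04 for 2 ependymal genes and 0.811 for 12 oligodendrocyte genes. In RalAB cKO against control, 6 of 16 neuron genes fell and 1 rose, where 9.02% of all tested genes fell and 9.39% rose. The median log2 fold change of the neuron genes was -1.42, further below 0 than the -0.739 of the astrocyte genes. Their mean log2 CPM averaged 1.85 in RalAB cKO, 2.23 in RalA cKO and 2.99 in control. Their summed level was 945.8 to 1011 CPM in RalAB cKO, 776 to 815 in RalA cKO and 792 to 966 in control. Slc17a6 was at 0 in 2 RalAB cKO libraries. Oligodendrocyte precursor genes fell in 5 of 12 (3204 to 4262, 3232 to 3664 and 3503 to 5119 CPM in the same order), with none at 0 and a median of -0.875. Oligodendrocyte genes fell in 6 of 12 and rose in 1 (97510 to 124600, 110700 to 129400 and 94810 to 123600 CPM), with none at 0 and a median of -0.275. Of 15 microglia genes 14 rose and 0 fell (1160 to 2129, 178.5 to 291.5 and 265.2 to 572.5 CPM), with none at 0 and a median of 1.96. Of 10 endothelial and 8 pericyte and fibroblast genes, 0 passed in either direction, with medians of -0.447 and -0.33. Of 8 ependymal genes 2 were tested, and 0 passed.

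In RalAB cKO against RalA cKO, 4.5% of all tested genes fell and 7.03% rose. Of the markers there, 15 of 15 microglia genes rose, and 5 of 12 oligodendrocyte and 1 of 12 oligodendrocyte precursor genes fell. In the neuron list 1 of 16 genes fell and 1 rose, and 1 of 10 endothelial genes rose. In RalA cKO against control, 3 of 15 microglia genes fell and 1 of 12 oligodendrocyte genes rose (1.07% and 1.71% of all tested genes). In that comparison 0 neuron, endothelial, or pericyte and fibroblast genes passed. The values there were nonetheless below 0 in 15 of 15 microglia, 16 of 16 neuron, 10 of 10 endothelial and 7 of 8 pericyte and fibroblast genes, with a median of -0.999 for the neuron genes.

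**Figure D4:**
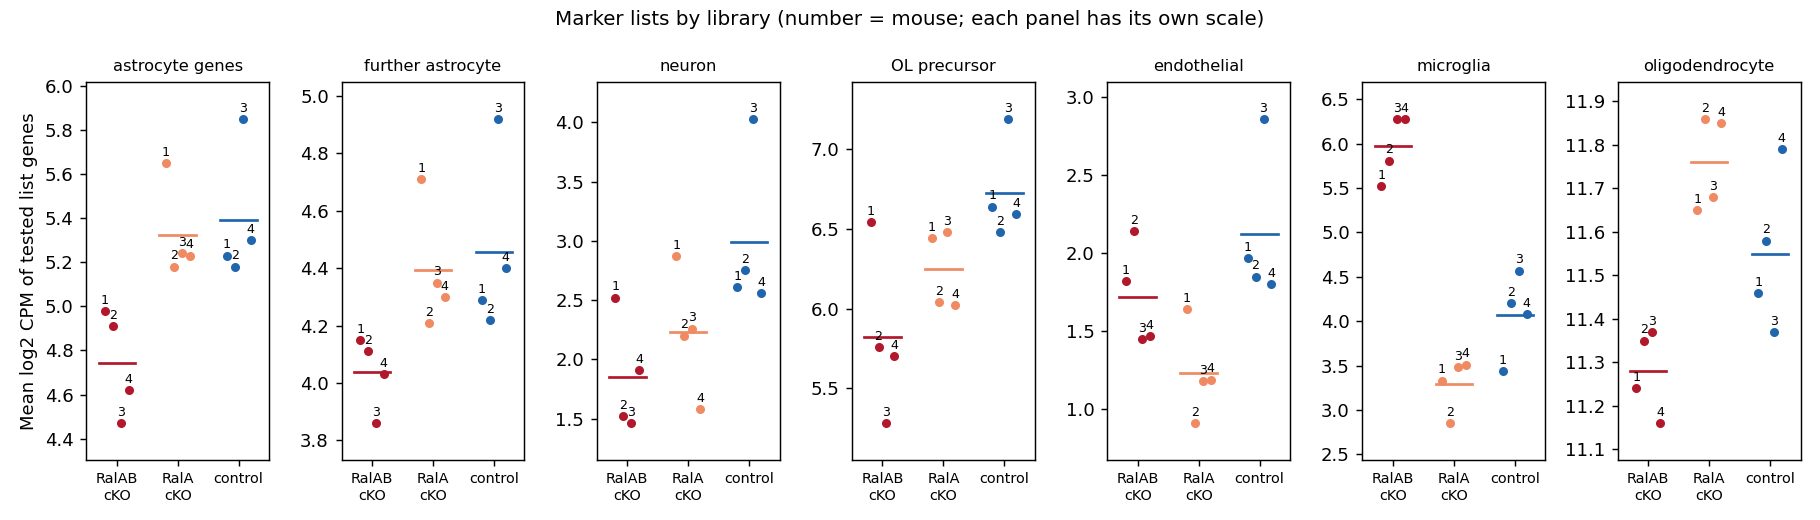
Mean log2 CPM of the tested genes of 7 marker lists in each library, 1 panel per list with its own axis, numbers giving the mouse and lines the group means. The 28 astrocyte genes average 4.47 to 4.98 in RalAB cKO, 5.18 to 5.65 in RalA cKO and 5.18 to 5.85 in control libraries, and control mouse 3 is the highest control in every panel but that of the oligodendrocyte genes, where it is the lowest.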

How the data were processed

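The deposited files, 1 per library, list per transcript the estimated counts and the TPM that the authors made. The submitters' processing notes name Trimmomatic 0.36, kallisto 0.44 and GRCm38.p6 without their roles. The labels give the TruSeq Stranded mRNA kit. The authors' deposited transcript names and lengths were used to assign transcripts to genes.

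Of 121843 transcripts, 121104 matched GENCODE vM21, and the 739 others (0.219% to 0.277% of counts) were left out. Estimated counts were summed per gene and rounded, and TPM summed per gene. Genes were filtered with edgeR 4.0.16 (count 10, total 15), scaled by TMM, and tested with the robust quasi-likelihood F test over all 12 libraries, with p-values adjusted by Benjamini-Hochberg over 13456 genes at 0.05. Each tested member had at least 15 counts in every library. CPM are TMM-scaled, and standard errors are the log2 fold change over the root of F. Sequencing depth was 10928206 to 15440437 counts per library, and no pair of libraries of the same group agreed within sampling noise (chi-square per degree of freedom 9.09 to 39.5). Mice are the replicates. limma 3.58.1 and DESeq2 1.42.0 served as alternatives. The scripts were tested on simulated data, with 2 groups at a time. There 63% to 71% of 2-fold changes and 21% to 32% of 1.5-fold changes were recovered. False calls were 4.08% to 8.33% of all calls, the highest between the mutants. A gene that did not pass may therefore still differ.

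The members and marker lists were chosen with earlier results of these data known. All 29 members are named, with, from the further astrocyte and reactive lists, up to 4 called genes of smallest p per comparison. Only gene sums were tested, since the division of counts among transcripts of a gene differed widely between libraries.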

Additional observations from a re-analysis of the deposited data

Results flagged for a closer look

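In each of the 29 genes and 3 groups, the highest and lowest library was set against the range of its group on the log2 scale of CPM. Of 87 groups, 6 had a library beyond the critical gap (Dixon's test at the 95% level for 4 samples), where chance gives about 1 in 20. Among controls, Aldh1l1 in mouse 3 was 17.0 CPM with the others at 10.8, 9.99 and 10.1 CPM, and Slc6a11 in mouse 3 was 269 CPM with the others at 155, 145 and 154 CPM. In RalA cKO mouse 1, Agt was 24.0 CPM with the others at 13.3, 13.6 and 14.2 CPM, and Ndrg2 was 100 CPM with the others at 59.5, 57.7 and 55.4 CPM. Nfia in RalA cKO mouse 3 was 14.1 CPM with the others at 8.40, 8.22 and 8.90 CPM. Dio2 in RalAB cKO mouse 3 was 0 CPM with the others at 0.520, 0.408 and 0.380 CPM, all from few counts.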

How the results depend on the processing

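Under 21 other settings, some calls held each time. These were Glul in RalA cKO against control, Slc6a9, Slc6a11, Slc1a3, Fgfr3, Slc39a12, Agt, Ndrg2 and Glul in RalAB cKO against control, and Slc6a9 and Hepacam in RalAB cKO against RalA cKO. Leaving out each library in turn, the members called ranged over 1 to 2 in RalA cKO against control, 9 to 18 in RalAB cKO against control (9 without RalAB cKO mouse 3, 10 without RalAB cKO mouse 4 or control mouse 3) and 3 to 15 in RalAB cKO against RalA cKO (3 without RalAB cKO mouse 4, 6 without RalAB cKO mouse 3 or RalA cKO mouse 1), and the genes called over 85 to 947, 1605 to 3209 and 1117 to 1678. Genes called in RalA cKO against control, 374 in all, were 1083 with DESeq2, 1789 with limma-voom and quality weights, 190 without control 3 and RalA cKO 1 and 1693 without control 1 and RalAB cKO 1 (both chosen after seeing the data); members called without control 3 and RalA cKO 1 were 1. In RalAB cKO against control they were 4071 with limma-voom and 3962 without control 1 and RalAB cKO 1, and between the mutants 2541 with limma-voom. Members called between the mutants were 4 with library totals alone and 16 with limma-voom. The cause was not tested. Library totals alone moved the median of all genes to -0.138 in RalA cKO against control, where 176 rose and 250 fell in place of 230 and 144.

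Deviations from the group means correlated at -0.198 to 0.175 between libraries with the same mouse number, and at 0.062 to 0.175 in RalA cKO against control. Libraries with different numbers were not compared, so these values cannot decide whether mice were paired. With the mouse number as a replicate block, 232 genes were called in RalA cKO against control. The members called were then 2 there, 15 with RalAB cKO set against control and 8 between the mutants.

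Some signs turned. In RalA cKO against control, these were Aqp4 (-0.0567 with limma-voom, -0.14 with length offsets), Mlc1 (-0.0167), Clu (-0.10) and Slc7a10 (-0.0152) with library totals, Ntsr2 (-0.0583 with library totals, -0.0172 with offsets), Id3 (0.10 with limma-voom) and Slc7a10 (-0.0031 without control 1 and RalAB cKO 1). In RalAB cKO against control, they were Hepacam (-0.0607) and Ttyh1 (-0.0531) with library totals, Nfia (0.0652) and Ttyh1 (-0.0237) with offsets, and Ttyh1 (-0.0456 without control 3 and RalA cKO 1). Between the mutants, they were Glul (0.0342 with limma-voom), Nfia (0.0173 with library totals, 0.15 with offsets) and Ttyh1 (0.0028 without control 1 and RalAB cKO 1). With 1 library left out, values with both signs ran in RalA cKO against control over -0.22 to 0.85 for Aqp4, -0.27 to 0.0706 for Aldh1l1, -0.32 to 0.043 for Slc6a11, -0.14 to 0.00074 for Slc6a9, -0.0216 to 0.29 for Mlc1, -0.38 to 0.18 for Atp1b2, -0.0761 to 0.57 for Sox9, -0.0391 to 0.25 for Ntsr2, -0.19 to 0.23 for Clu, -0.24 to 0.12 for Id3, -0.0264 to 0.47 for Slc7a10 and -0.19 to 0.13 for Cbs, in RalAB cKO against control over -0.0314 to 0.0809 for Hepacam and -0.0454 to 0.12 for Ttyh1, and between the mutants over -0.10 to 0.0702 for Glul, -0.11 to 0.51 for Itih3 and -0.33 to 0.19 for Nfia.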

Other observations

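The estimated division of counts among transcripts differed widely between libraries of a group for several members, and it was not tested. Nfia-202 took 21.7% of the counts of Nfia in RalAB cKO, 10.6% in RalA cKO and 55.1% in control libraries, summed over each group. The RalAB cKO share came from mouse 1 alone, with 109 counts, and the other RalAB cKO libraries were at 0, while 2 RalA cKO libraries and all 4 control libraries had counts. Aldh1l1-207, a transcript annotated for nonsense-mediated decay, was at 0 in 10 of 12 libraries, with 75.6 counts in RalAB cKO mouse 1 and 32.9 in RalA cKO mouse 3.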
